A study of Mus musculus with 12 samples.

Results

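10 genes of efferocytosis were followed in Mϕ of mice with peritonitis, namely Axl, Mertk, Gas6, Pros1, Mfge8, Tgm2, Stab1, Elmo1, Dock1 and Havcr2. They were taken by symbol, from a list drawn up when earlier results of these data were known, and are 10 of the 47643 gene identifiers in the tables of both Mϕ subpopulations. Female C57/BL6 mice, 8 to 12 weeks old, received zymosan at 5 mg/kg i.p., and from day 1 daily injections of compound III (CIII, 25 mg/kg), an inhibitor of the prostaglandin E2-producing enzyme mPGES-1, or of the vehicle (VEH). At day 6, F4/80lo and F4/80hi Mϕ were sorted from the lavage and their mRNA was sequenced from the 3′ end, in 3 VEH and 3 CIII libraries of each subpopulation, so all 12 libraries came from zymosan-treated mice. By the study's gating, dendritic cells (CD11c+, MHCII+) were set aside first, and among the remaining CD45+, CD11b+ cells those high in F4/80 and MerTK were F4/80hi Mϕ. Cells low in both, without Ly6G and with MHCII, were F4/80lo Mϕ. The sources used here do not say whether a library came from 1 mouse or a pool, or whether both subpopulations were sorted from the same mice, so p-values measure the spread between these libraries only.

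Efferocytosis is the uptake of dying cells, by which Mϕ clear neutrophils as an inflammation resolves. Dying cells expose phosphatidylserine, which is bound directly by receptors such as Stab1 and Havcr2 (TIM-3), or through bridging proteins. Gas6 bridges to the receptor tyrosine kinases Axl and Mertk, Pros1 (protein S) bridges to Mertk, and Mfge8 bridges to αv integrins, with Tgm2 (transglutaminase 2) as a co-receptor. Elmo1 and Dock1 form the exchange factor that activates Rac, so that the membrane closes around the cell.

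Libraries held between 426624 and 3389448 gene-assigned reads, and 0 reads allowed up to 0.885 to 7.03 reads per 1000000 (RPM), counting error only. The libraries with replicate number 3 stood apart, with 2.65 to 14.3% of reads on Gm42418 against 0.0723 to 0.579% in the other 8. The summed level of 10 markers of resident large peritoneal Mϕ, such as Gata6, was 6076 to 8528 RPM in the 4 F4/80hi libraries with numbers 1 and 2. It was only 682 and 1024 RPM in the F4/80hi libraries with number 3, near the 460 to 1433 RPM of the 6 F4/80lo libraries. The number-3 libraries labelled F4/80hi therefore carried little of the resident marker mRNA, and values for numbers 1 and 2 alone are given beside several of the results. General Mϕ markers were read in all libraries, at a summed 11511 to 30973 RPM. Sums stayed at or below 96.3 RPM for neutrophil, 188.9 for B cell, 34.7 for T and NK cell, 7.99 for eosinophil and mast cell, 2.24 for mesothelial and 4.79 for fibroblast markers.

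To show the genes of the comparison of levels described next, the 250 bases before the RefSeq start sites of the called members Axl, Gas6 and Pros1, and of Mertk as the relative of Axl that was not tested, are printed 5′ to 3′ on the gene's strand (GRCm38.p6). Capitals mark matches on either strand to the letters GGGCGG (GC box), to GAGGAA (PU.1-type) or, in Pros1, to GATAAG (the motif of GATA factors). In the GENCODE annotation of GRCm38, the genes span chr7:25757273-25788705 (Axl, minus strand), chr2:128698956-128802894 (Mertk, plus strand), chr8:13465374-13494490 (Gas6, minus strand) and chr16:62854307-62929346 (Pros1, plus strand). The printed windows are chr7:25788734-25788983 (minus strand) for Axl, chr2:128698665-128698914 (plus strand) for Mertk, chr8:13494536-13494785 (minus strand) for Gas6 and chr16:62854057-62854306 (plus strand) for Pros1.
Axl: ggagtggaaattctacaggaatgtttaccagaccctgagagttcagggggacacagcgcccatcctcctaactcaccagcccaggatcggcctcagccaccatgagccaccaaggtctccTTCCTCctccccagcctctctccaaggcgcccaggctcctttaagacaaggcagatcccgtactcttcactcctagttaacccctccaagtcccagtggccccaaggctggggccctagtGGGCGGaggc
Mertk: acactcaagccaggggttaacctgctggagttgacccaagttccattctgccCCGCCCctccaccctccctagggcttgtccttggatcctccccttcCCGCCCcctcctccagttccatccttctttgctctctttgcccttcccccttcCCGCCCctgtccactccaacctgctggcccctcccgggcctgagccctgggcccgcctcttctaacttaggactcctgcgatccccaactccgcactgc
Gas6: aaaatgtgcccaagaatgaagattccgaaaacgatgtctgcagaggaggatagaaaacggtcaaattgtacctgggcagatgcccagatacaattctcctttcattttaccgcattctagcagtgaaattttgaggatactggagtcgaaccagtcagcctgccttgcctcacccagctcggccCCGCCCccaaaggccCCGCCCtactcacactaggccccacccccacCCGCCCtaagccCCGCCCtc
Pros1: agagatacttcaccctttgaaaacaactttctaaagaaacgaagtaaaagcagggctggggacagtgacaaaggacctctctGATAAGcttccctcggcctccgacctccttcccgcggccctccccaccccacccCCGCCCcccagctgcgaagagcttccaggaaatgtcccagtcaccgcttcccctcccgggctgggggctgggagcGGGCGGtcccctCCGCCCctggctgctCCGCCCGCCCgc
The Axl window held 1 GC box and 1 GAGGAA match, the Mertk window 3 GC boxes, the Gas6 window 4, and the Pros1 window 5 and 1 GATAAG match. GC boxes were in windows of 7 of the 9 members that had one in the table (not Tgm2), and in 32.7% of all 32851 promoter windows. The members' windows had a GC content of 43.6 to 71.6%, against a median of 52.4% over all windows, and were not matched for it. GAGGAA was found for 5 of 9 members and in 23.3% of all windows. None of the 4 printed windows held the cAMP response element, searched as TGACGTCA and found in 1.55% of all windows. The same was true of the AP-1 motif, searched as TGANTCA (6.75% of all windows). GATAAG was in 6.55% of all windows. The nuclear receptor half-site, searched as AGGTCA (14.02%), was in none of the 4. These matches are letters only, and occupancy was not measured.

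First, the levels of the genes in both subpopulations were compared, in RPM scaled together over the 12 libraries by the TMM method and not divided by transcript length, since a 3′ library gives a tag per transcript. Axl mRNA was higher in F4/80lo Mϕ, whereas Gas6 and Pros1 mRNA, which encode ligands of this receptor family, were higher in F4/80hi Mϕ. These were the 3 of 9 members past an adjusted p of 0.05 in limma with a replicate block, and no member passed without the block. For the level, each block was a pair of libraries of equal treatment and replicate number. Among all 10726 genes, 2.5% were called higher in F4/80hi and 2.62% higher in F4/80lo with the block, against 0.0186% in either direction without it. At an unadjusted p under 0.05 without the block, Axl and Gas6 passed, as did 9.29% of all genes. Same-numbered libraries deviated together between the subpopulations (r of 0.263 to 0.691, against at most 0.224 for different numbers), which is the ground for the block. Number 3 stood apart in every group, and with 3 libraries a group this alone can raise same-numbered correlations. In these bulk libraries, fewer cells of a type and less RNA per cell cannot be told apart.

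Axl, a receptor found on Mϕ and dendritic cells under inflammation, was read at 99.1, 203 and 36.2 RPM in the F4/80lo VEH libraries 1 to 3 and at 166, 232 and 404 RPM in the F4/80lo CIII libraries. The F4/80hi libraries gave 22.5, 34.8 and 26.9 RPM under VEH and 44.7, 23.5 and 174 RPM under CIII. Of the 6 F4/80hi libraries, 4 lay below every F4/80lo library, and only CIII number 3 lay well inside the F4/80lo range. F4/80lo was higher in 6 of 6 pairs of equal treatment and number. The log2 difference, F4/80hi minus F4/80lo, was −1.89 ± 0.48 (SE, n = 6 against 6, limma adjusted p = 0.191), or adjusted p = 0.000793 with the block. An exact permutation test, two-sided over the 12 libraries without regard to treatment or pairs, gave p = 0.0281. Numbers 1 and 2 alone gave −2.44 (limma adjusted p = 0.00051). Over 24 alternatives the difference stayed between −2.44 and −1.58, with limma, edgeR or DESeq2 adjusted p from 0.00051 to 0.974. Dendritic cell markers also differed between the subpopulations: 7 of 7 were read in F4/80lo libraries, at a summed 7.66 to 235.6 RPM, and in F4/80hi libraries the sum was 1.3 to 20.9 RPM, with none of the 7 at 0 in all libraries. In the F4/80lo libraries with number 3 the sum was 7.66 RPM under VEH and 38.6 RPM under CIII. The latter was the lowest sum of its group, in the library highest in Axl at 404 RPM. In F4/80hi CIII number 3, with 174 RPM of Axl, the sum was 4.22 RPM. The gate set CD11c+, MHCII+ cells aside before both sorts, and the part of such cells in the Axl difference was not tested.

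Mertk encodes the second of these receptors, and its protein was part of the sort, so its level is given without a test. Its mRNA ran from 174 to 424 RPM in F4/80lo and from 184 to 419 RPM in F4/80hi libraries, with medians of 244 and 305 RPM. The subpopulations overlapped almost fully, and 3 of 6 pairs were higher in F4/80hi. Adgre1, which encodes F4/80 itself and was sorted on as well, differed by a log2 of 1.69, against 0.19 for Mertk.

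Gas6, the ligand of Axl and Mertk, was read at 18.2, 25.3 and 2.44 RPM in F4/80lo VEH and at 7.27, 4.41 and 0 RPM in F4/80lo CIII libraries. F4/80hi Mϕ gave 46.4, 39 and 7.84 RPM under VEH and 90.3, 39.1 and 5.43 RPM under CIII. All 4 F4/80hi libraries with numbers 1 and 2 were above every F4/80lo library, while both with number 3 were low. F4/80hi was higher in 6 of 6 pairs, by a log2 of 2.05 ± 0.78 (SE, limma adjusted p = 0.418, or 0.00416 with the block). Numbers 1 and 2 alone gave 2.06 (limma adjusted p = 0.0132). The exact permutation p over the 12 libraries was 0.0541. Over 24 alternatives the log2 difference ran from 1.09 to 3.01, with adjusted p from 0.00416 to 0.974. The 3′ end of Gas6 overlaps Tmem255b on the other strand, and the strand setting of the counting is not given in the sources used here, so Gas6 counts are uncertain to that extent.

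Pros1 encodes protein S, which also acts against blood clotting. F4/80lo libraries held 152, 118 and 30.6 RPM under VEH and 157, 75 and 99.2 RPM under CIII, and F4/80hi libraries held 276, 322 and 30.2 RPM under VEH and 387, 291 and 133 RPM under CIII. F4/80hi was higher in 5 of 6 pairs, the exception being VEH number 3, where both subpopulations were at about 30 RPM. The log2 difference was 0.99 ± 0.56 (SE, limma adjusted p = 0.628, or 0.0135 with the block), 1.37 in numbers 1 and 2 alone (adjusted p = 0.0103), and 0.64 to 1.51 over 24 alternatives (adjusted p 0.0103 to 0.974). The exact permutation test over the 12 libraries gave p = 0.175. In the number-3 F4/80hi libraries, low Gas6 and Pros1 stood beside low summed resident markers, of which all 10 were read in each group and none was at 0 throughout; their part in the difference was not tested.

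**Figure D1:**
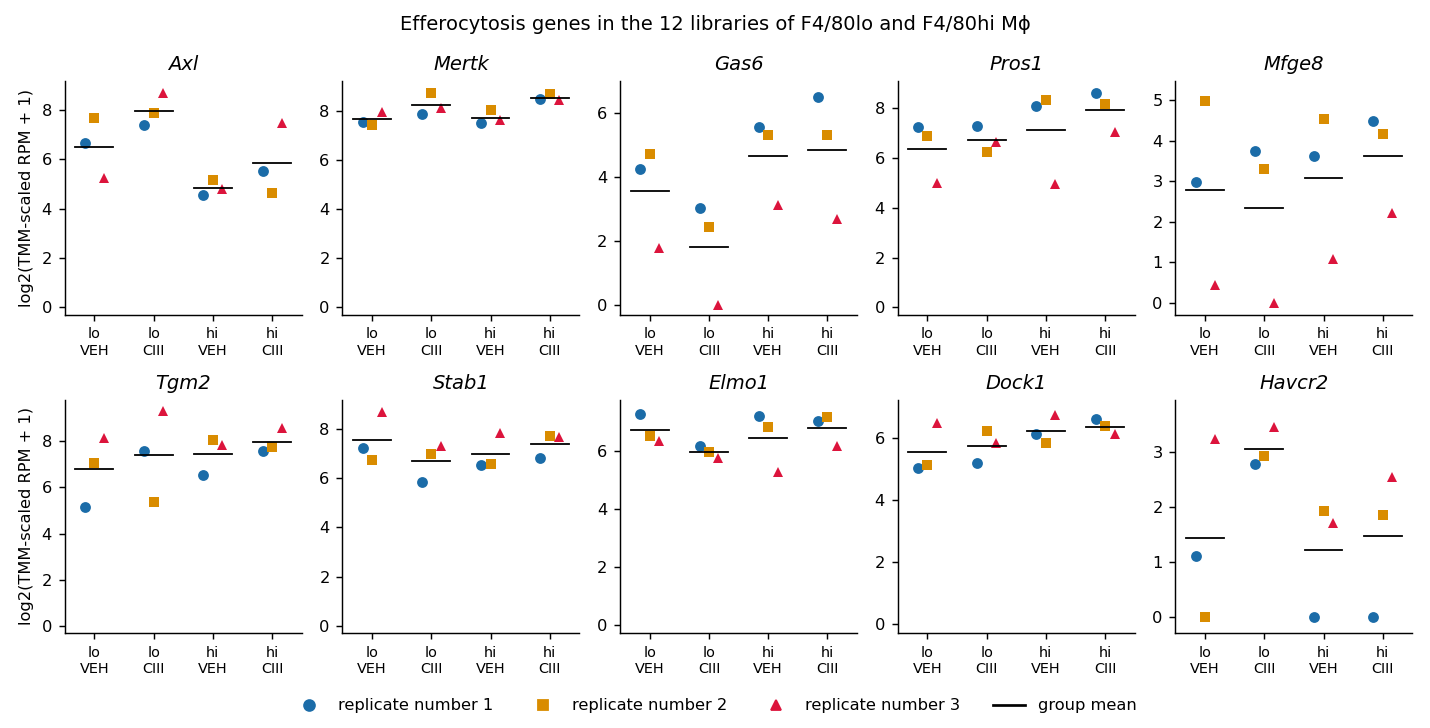
Each panel gives 1 gene, with log2(TMM-scaled RPM + 1) on the vertical axis and the 4 groups on the horizontal axis. Points are libraries, shaped and coloured by replicate number, and bars are group means. Axl lies below every F4/80lo library in 4 of 6 F4/80hi libraries, with CIII numbers 1 and 3 higher at 44.7 and 174 RPM, Gas6 and Mfge8 are lowest in number 3 of all 4 groups, and Mertk spans 174 to 424 RPM.

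The other members did not pass the test of the level, with or without the block. Dock1, the Rac exchange factor, was higher in F4/80hi in 6 of 6 pairs, at 55.7 to 105 RPM against 31.9 to 88.8 RPM, with a log2 difference of 0.64 (95% interval −0.02 to 1.31, limma adjusted p = 0.554, or 0.107 with the block). Elmo1, its partner, overlapped between the subpopulations, with a difference of 0.28 (−0.44 to 1.00). The bridging gene Mfge8 differed by 0.78 (−1.15 to 2.71), and Tgm2 by 0.62 (−0.69 to 1.92). Stab1, the scavenger receptor stabilin-1, differed by 0.06 (−0.77 to 0.89), with 3 of 6 pairs in each direction. In numbers 1 and 2 alone, the difference was 1.18 (0.15 to 2.21) for Tgm2, 0.56 (0.00 to 1.12) for Elmo1 and 0.82 (0.17 to 1.48) for Dock1, with limma adjusted p of 0.216, 0.293 and 0.18. Leaving out 1 library at a time moved the difference to between 0.20 and 1.33 for Mfge8 (lowest without F4/80lo CIII number 3), 0.11 and 1.09 for Tgm2 (without F4/80lo CIII number 2), 0.09 and 0.55 for Elmo1 (without F4/80hi VEH number 1), and −0.17 and 0.35 for Stab1 (without F4/80hi VEH number 3). Havcr2 was at the edge of detection with 0 to 24 reads a library, and differed by −0.91 (−2.43 to 0.61), or by −0.46 without F4/80lo VEH number 3. With means of 5.31 RPM in F4/80lo and 2.08 RPM in F4/80hi, it met the minimum mean of 3 only through F4/80lo. Its difference is therefore a description only. The median over the 10 members was 0.45, against 0.00 over all genes. Antisense genes also overlap the 3′ ends of Tgm2 (Rprd1b, Gm20412) and Stab1 (Nt5dc2).

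To set the members in their pathway, 91 other efferocytosis genes in 5 lists were examined, of which 79 were measured well enough to be tested. With the block, 6 were called higher in F4/80hi and 2 higher in F4/80lo, and without it none was called (at an unadjusted p under 0.05, 9 were higher in F4/80hi and 2 in F4/80lo). Over all genes, 2.5% and 2.62% were called in these directions with the block, and 9.29% had an unadjusted p under 0.05 without it. All the lists together had a median log2 difference of 0.16, against 0.00 over all genes. Among 19 tested phosphatidylserine receptors and bridging molecules, 15 had a positive difference and 3 were called with the block. These were Thbs1 (thrombospondin-1), at 392 ± 281 RPM in F4/80hi and 120 ± 72.2 RPM in F4/80lo (SD, n = 6, log2 difference 1.32, limma adjusted p = 0.0236 with the block and 0.582 without), the scavenger receptor Cd36 (0.68) and the complement gene C1qc (0.72). Cd36 and C1qc, and Lamp1, Dock5 and Itgb5 named later, were chosen after their values were seen.

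The list of sensing, restraint and shedding genes held calls in both directions, all with the block alone. P2ry2, a receptor for nucleotides released by dying cells, was at 27.5 ± 21.8 RPM in F4/80hi and 4.16 ± 4.03 RPM in F4/80lo (SD, n = 6, log2 difference 2.34, limma adjusted p = 0.0259 with the block, 0.376 without). S1pr1, a sphingosine-1-phosphate receptor, differed by 1.48 in the same direction (limma adjusted p = 0.0164 with the block, 0.511 without). Gpr132, which senses lysophosphatidylcholine, was higher in F4/80lo, with a log2 difference, F4/80hi minus F4/80lo, of −1.61 (limma adjusted p = 0.0204 with the block, 0.298 without). P2ry6, a UDP receptor, also lay higher in F4/80lo, at −0.97 (limma adjusted p = 0.0111 with the block, 0.32 without). No gene was called among 14 tested engulfment signalling genes or 15 tested genes of the response to ingested cells, whose medians were −0.02 and −0.12. Of 20 phagosome maturation genes, 15 had a positive difference, and Lamp1, a lysosomal membrane protein, was called with the block at 0.67.

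**Figure D2:**
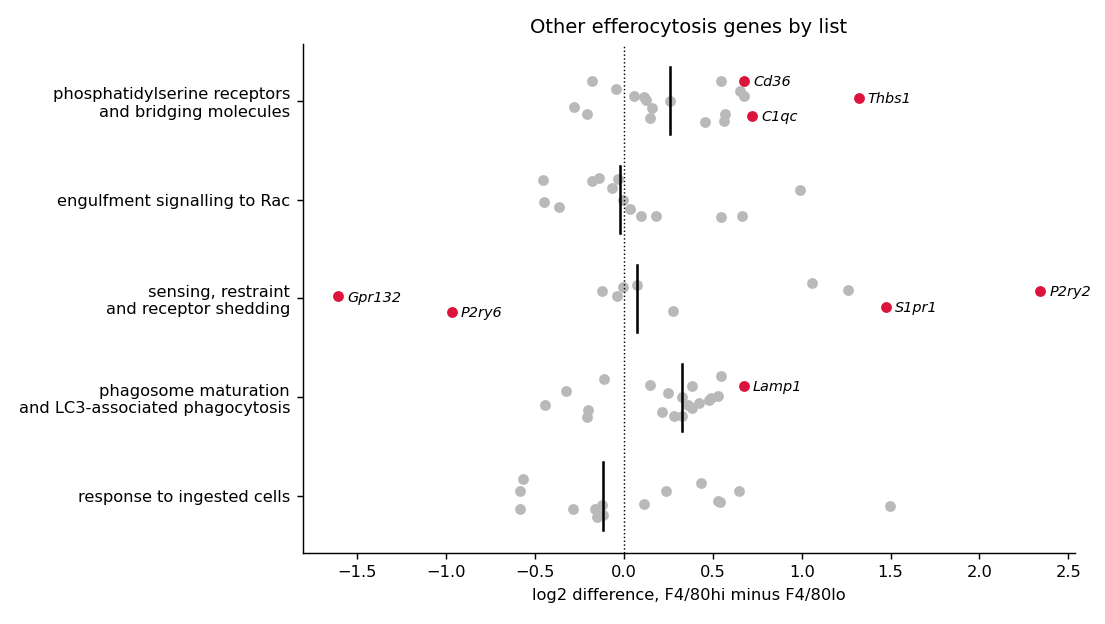
Each point is a gene of 1 of the 5 lists, placed by its log2 difference in level, F4/80hi minus F4/80lo, with list medians as black bars and a small random vertical offset. The 8 named genes in red had a limma adjusted p under 0.05 with the replicate block, from Gpr132 at −1.61 to P2ry2 at 2.34.

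Next, the effect of mPGES-1 inhibition was compared within each subpopulation, in normalized counts. In F4/80lo Mϕ, Axl had a positive and Elmo1, Gas6 and Stab1 a negative log2 fold change, but no member passed the adjusted threshold in limma, nor did any (0%) of the 10718 genes tested. Over all genes, limma gave 289 with an unadjusted p under 0.05, and on whole reads recovered from the values edgeR called 0 and DESeq2 called 2. At an unadjusted p under 0.05, Axl was the 1 of 10 members, against 2.7% of all genes, and with the block 4 of 10 members (Axl, Gas6, Stab1 and Elmo1), against 6.89%. Of the 10 members, 6 had a positive and 4 a negative change, with a median of 0.28 against −0.05 over all genes.

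Axl was at 101, 205.4 and 34.6 normalized counts in the F4/80lo VEH libraries and at 162, 240 and 406 in the CIII libraries. The groups overlapped, because VEH number 2 lay above CIII number 1, and CIII was higher within each of the 3 numbers. The log2 fold change was 1.47 ± 0.58 (SE, n = 3 against 3, limma adjusted p = 1.00). Number 3 carried most of it, with a difference of 3.51 against 0.67 and 0.22 in numbers 1 and 2. The fold change was 0.79 without VEH number 3 and 0.45 in numbers 1 and 2 alone, and ran from 0.45 to 2.06 over 17 alternatives, with adjusted p from 0.416 to 1.00. The summed level of 10 F4/80lo-type markers moved with it, at 5481 to 13623 RPM under VEH and 15461 to 27062 RPM under CIII without overlap, and it was lowest in VEH number 3. All 10 were read in both groups. Most of the sum came from the MHC class II genes H2-Ab1, H2-Aa and H2-Eb1 and from Cd74. H2-Aa averaged 3088 RPM under VEH and 6093 RPM under CIII. Ly6c2 alone was lower with CIII, at a mean of 52.3 RPM against 94.6 RPM. The study names H2-Eb1 and Cx3cr1, both on this list, among the genes upregulated with CIII. T and NK cell markers summed to 5.07 to 16.4 RPM under VEH and 16.5 to 30.9 RPM under CIII. These groups did not overlap, but the number-3 libraries were nearly equal, at 16.4 and 16.5 RPM. Of 8 markers, 6 and 7 were read, with none at 0 in all libraries. The part of either list in the Axl values, or in those of the other members in F4/80lo, was not tested. An exact permutation test gave p = 0.2, where 0.1 is the smallest p that 3 against 3 libraries allow.

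Elmo1, the partner of Dock1 in Rac activation, was at 158, 92.4 and 76.6 normalized counts under VEH and at 69.5, 64 and 53.1 under CIII in F4/80lo Mϕ. All CIII libraries lay below all VEH libraries, as they did for 4.92% of the genes tested, while CIII lay above VEH throughout in 3.82% and in no member. The log2 fold change was −0.74 ± 0.39 (SE, n = 3 against 3, limma adjusted p = 1.00, exact permutation p = 0.1). It was −0.44 without VEH number 1 and −0.96 without VEH number 3. The F4/80lo-type markers and, narrowly, the T and NK cell markers separated the same libraries, in the opposite direction. Gas6 was at 18.6, 25.7 and 2.33 under VEH and at 7.09, 4.57 and 0 under CIII, lower with CIII in 3 of 3 numbers but overlapping. These came from 16, 20 and 7 reads and from 10, 2 and 0 reads, and the log2 fold change was −1.76 ± 1.07 (SE, limma adjusted p = 1.00). It was −0.84 without CIII number 3 and −2.68 without VEH number 3. Stab1 had a log2 fold change of −0.82 ± 0.54 (SE), with CIII lower in 2 of 3 numbers, and it was −0.28 without VEH number 3 and −1.22 without VEH number 2.

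Mertk was at 194, 176 and 241 normalized counts in F4/80lo VEH libraries and at 231, 439 and 280 under CIII, higher with CIII in 3 of 3 numbers, with a log2 fold change of 0.59 ± 0.36 (SE, limma adjusted p = 1.00), or 0.33 without CIII number 2. Havcr2 had 0 to 24 reads and a log2 fold change of 1.63 with a 95% interval of −0.58 to 3.83, and 0.91 to 2.50 without 1 library each. The log2 fold changes of Pros1 (0.37), Mfge8 (−0.45), Tgm2 (0.63) and Dock1 (0.20) were smaller than their SE, with 95% intervals across 0. All 4 changed sign when a single library was left out, running from −0.36 to 0.82 for Pros1, −1.64 to 0.72 for Mfge8, −0.31 to 1.63 for Tgm2 and −0.05 to 0.64 for Dock1. In numbers 1 and 2 alone the fold change was −0.31 for Pros1, 0.59 for Dock1 and 2.30 for Havcr2. Tgm2 ran from 34.9 to 269 under VEH and from 41.1 to 622 under CIII.

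In F4/80hi Mϕ, the 9 members tested all had a positive log2 fold change, with a median of 0.47 against 0.05 over all genes, but 0 of 9 passed the adjusted threshold in limma, nor did any (0%) of 10499 genes. Limma gave 413 genes with an unadjusted p under 0.05, and edgeR and DESeq2 called 0, the latter with 9165 adjusted p-values not available. Gas6, Pros1, Mfge8, Elmo1 and Dock1 turned negative when a single library was left out. Havcr2 was left out by the minimum of 3 mean normalized counts. Mertk was the 1 member at an unadjusted p under 0.05 without the block (3.93% of all genes) and with it (11.3%).

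Mertk was at 174, 246 and 187 normalized counts in the F4/80hi VEH libraries and at 325, 386 and 315 in the CIII libraries. All CIII libraries lay above all VEH libraries, as for 4.73% of genes, with CIII below VEH throughout in 5.76%. The log2 fold change was 0.77 ± 0.31 (SE, n = 3 against 3), with 0.90, 0.65 and 0.75 in numbers 1, 2 and 3. Its limma adjusted p was 0.992, or 0.26 with the block. The exact permutation p was 0.1, the smallest that this design allows. Over 17 alternatives the change stayed between 0.67 and 0.91, with adjusted p between 0.26 and 1.00. Neutrophil markers separated the same groups, at a summed 26.5 to 96.3 RPM under VEH and 10.4 to 15.98 RPM under CIII. Of the 9 markers, 2 were read under VEH and 4 under CIII, with Ngp and Camp at 0 in all libraries, and their part in the Mertk values was not tested. MerTK protein was a sorting marker in both treatments.

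Axl was at 21.3, 32.7 and 25.2 normalized counts under VEH and at 40.4, 21.6 and 158 under CIII in F4/80hi Mϕ. A single library, CIII number 3, stood high, and the log2 fold change of 0.98 ± 0.66 (SE, limma adjusted p = 0.992) was 0.18 without it and 0.16 in numbers 1 and 2 alone. That library also carried a summed 15275 RPM of F4/80lo-type markers, such as MHC class II genes, against 751 to 5406 RPM in the other F4/80hi libraries; its 10 listed markers were all read in each group, and their part in the Axl value was not tested. The ligand genes did not stand out from their spread. The log2 fold change was 0.77 ± 0.83 for Pros1 and 0.12 ± 0.98 for Gas6 (SE), each with 1 number or more against the fitted direction, and 0.13 for Pros1 and 0.43 for Gas6 in numbers 1 and 2 alone. Mfge8 (0.49), Tgm2 (0.47), Stab1 (0.37), Elmo1 (0.31) and Dock1 (0.09) likewise had 95% intervals across 0, and numbers 1 and 2 alone gave 0.21, 0.35, 0.66, 0.04 and 0.47 in the same order. The fold change of Tgm2 was 0.0025 without VEH number 1, and that of Stab1 ran from 0.15 without VEH number 1 to 0.80 without VEH number 3.

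**Figure D3:**
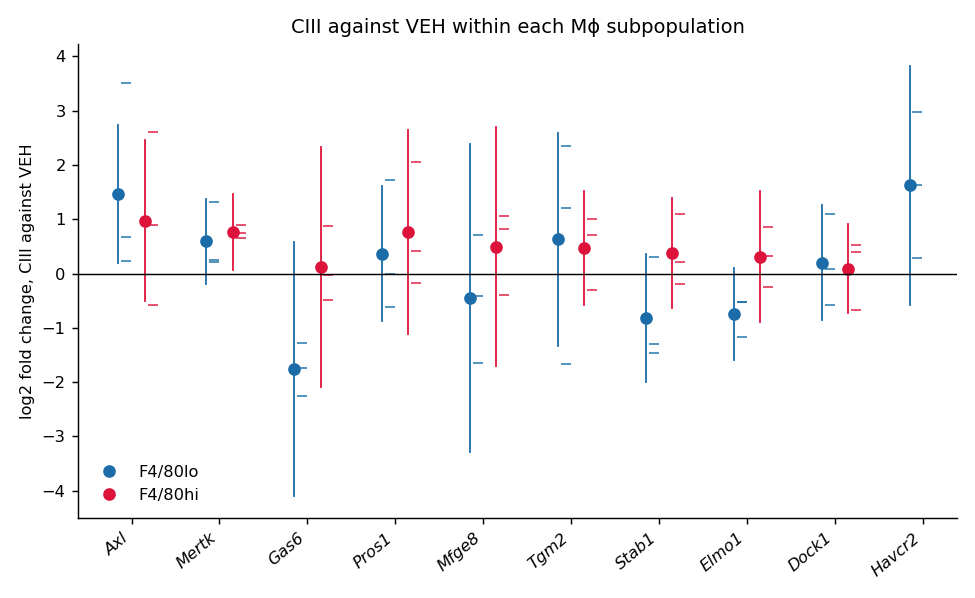
Points are log2 fold changes of CIII against VEH in F4/80lo (blue) and F4/80hi (red) Mϕ, lines are 95% confidence intervals from limma, and dashes are the differences within replicate numbers 1, 2 and 3. Intervals leave out 0 for Axl in F4/80lo (1.47) and Mertk in F4/80hi (0.77), neither with an adjusted p under 0.05, and Havcr2 was not tested in F4/80hi.

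The difference between the responses was then tested itself, as F4/80lo minus F4/80hi, over the 12 libraries. No member passed the adjusted threshold in limma, nor did any (0%) of 10726 genes, of which 198 had an unadjusted p under 0.05, and edgeR and DESeq2 also called 0. Of the 10 members, 0 had an unadjusted p under 0.05 without the block and 3 had one with it, against 5.62% of all genes with the block. These were Gas6 (−1.92 ± 1.56, SE without the block, limma adjusted p = 1.00, or 0.883 with the block), Stab1 (−1.25 ± 0.77) and Elmo1 (−1.11 ± 0.67), each with a lower change in F4/80lo. Leaving out 1 library at a time gave −3.02 to −1.01 for Gas6 (smallest without F4/80lo CIII number 3), −1.71 to −0.69 for Stab1 (without F4/80lo VEH number 3) and −1.52 to −0.56 for Elmo1 (without F4/80hi VEH number 3). For Axl the difference was 0.44 (95% interval −1.63 to 2.51) and for Mertk −0.23 (−1.17 to 0.70), so without the block a difference of more than 2-fold was possible for both. With the block the intervals were −1.38 to 2.26 for Axl and −0.98 to 0.52 for Mertk, the latter within 2-fold. Without 1 library each, the differences of Axl and Mertk ran from −0.23 to 1.22 and from −0.49 to −0.05. The median over the 10 members was −0.34, against −0.16 over all genes.

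Among the 91 other pathway genes, 49 of 78 tested in F4/80lo had a positive change (median 0.11 against −0.05 over all genes) and 1, Dock5, had an unadjusted p under 0.05, at 1.27 ± 0.53 (SE), against 2.7% of all genes. In F4/80hi, 51 of 78 had a positive change (median 0.20 against 0.05), and 2 had an unadjusted p under 0.05, against 3.93% of all genes. Abca1, the transporter that exports cholesterol from Mϕ that have taken up cells, had 226 ± 58.5 normalized counts under CIII and 93.5 ± 49.2 under VEH (SD, n = 3), without overlap, as for 4.73% of all genes. Its log2 fold change was 1.37 ± 0.43 (SE, limma adjusted p = 0.992). Itgb5, the β5 integrin chain that Mfge8 can bind, had a log2 fold change of 1.55 ± 0.65 (SE) with overlapping groups. No gene of the lists passed the adjusted threshold in either subpopulation, with or without the block.

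The members also varied with the replicate number. Gas6, Mfge8 and Elmo1 were lowest in number 3 in all 4 groups, 3 of 10 members against 9.78% of all genes. Mfge8 was at 0 to 3.62 RPM in number 3 and at 6.84 to 30.4 RPM in numbers 1 and 2, and Gas6 at 0 to 7.84 against 4.41 to 90.3 RPM. Tgm2, Stab1 and Havcr2 were highest in number 3 in 3 of 4 groups, Tgm2 at 222 to 620 RPM against 34.2 to 259 RPM. The labels do not say what a replicate number marks, so animals, day and library preparation cannot be told apart.

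Finally, the genes whose log2(RPM + 1) most resembled that of Axl and Mertk over the 12 libraries were sought among 8448 genes with a mean of at least 10 RPM. For Axl these were the MHC class II genes H2-Eb1 (Pearson r = 0.91), H2-Ab1 (0.89) and H2-Aa (0.89), at means of 2490, 4270 and 4590 RPM in F4/80lo and 876, 1205 and 1321 RPM in F4/80hi. MHCII was part of the sort. For Mertk they were Galk2 (0.92), Ern1 (0.87) and Ptcd1 (0.87). The 12 libraries differ in sort, treatment and depth, so these correlations are a description and carry no test.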

How the data were processed

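mRNA of 12 libraries of sorted F4/80lo and F4/80hi Mϕ was used, grouped by the labels. 3′ QuantSeq libraries with unique molecular identifiers were made by the authors, who mapped reads to GRCm38 with STAR, counted them per gene with HTSeq and scaled them with DESeq2, separately in each subpopulation. The deposited values are normalized counts (a signal, not whole counts), and 100% were whole multiples of 1 read within 0.1 of a read. Whole reads were therefore recovered. The strand setting of the counting is not given in the sources used here. A tag per transcript was counted, so values were not divided by length. Depth was 426624 to 3389448 reads on genes.

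CIII was compared with VEH in each table alone, with limma 3.58.1 (R 4.3.3, mean-variance trend) on log2(normalized count + 1), for genes with a mean of at least 3. Levels and the difference of the responses were tested over the 12 libraries on log2(RPM + 1) after TMM scaling in edgeR 4.0.16. Fold changes on this scale understate the change of low genes. P-values were two-sided and were adjusted over all genes tested by the method of Benjamini and Hochberg, with a threshold of 0.05. Single members were also tested by exact permutation of the libraries, without regard to pairs or, for the level, to treatment.

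The members and lists were chosen with earlier results of these data known. All 10 members were described. From 5 lists of 91 other genes, those named were the 3 with the largest difference in level in each direction among the called, and up to 3 in each direction by p among those with an unadjusted p under 0.05 and no overlap of the treatments. The genes most like Axl and Mertk were the 3 with the highest Pearson r over 12 libraries. Cell types were checked on 10 marker lists. Promoter windows came from the RefSeq table for GRCm38.p6, gene positions from GENCODE.

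Whether the replicate numbers pair the libraries was checked by the correlation of deviations from the group means. It was 0.121 to 0.504 in the 3 same-numbered pairs of F4/80lo, 0.216 to 0.639 in those of F4/80hi, and 0.263 to 0.691 in the 6 same-numbered pairs between subpopulations, all over 0.1. Pairs of different numbers reached 0.171, 0.285 and 0.224 in the same order, which for F4/80lo and F4/80hi lies above the lowest same-numbered pair. By the rule of every same-numbered pair over 0.1, the numbers were taken as pairs and the fit with a replicate block is given where it changed a call. The block was treatment and number together for the level, and the number alone for CIII and for the difference of responses. No 2 libraries of a group agreed within sampling noise. Alternatives were the pseudocount (0.5, 5), the filter (none, 10), the scaling, library weights, edgeR and DESeq2 1.42.0 on recovered reads, the block, numbers 1 and 2 alone, and leaving out each library.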

Additional observations from a re-analysis of the deposited data

How the results depend on the processing

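In 786 refits of single members, 732 kept direction and side of the threshold, 47 changed sign and 7 passed it (Axl, Gas6 and Pros1 in level). Among the 732 are DESeq2 refits for CIII in F4/80hi without an adjusted p, as for Axl and Gas6, which kept the direction alone. The causes were not tested. Genes called for the level numbered 2, and 549 with the replicate block, 330 in replicate numbers 1 and 2 alone, 140 with DESeq2, 10 with a pseudocount of 5, 6 on the deposited scaling, 4 on library totals, 0 without a filter, 0 in VEH libraries alone, and 0 to 142 without 1 library each, highest without F4/80hi VEH number 3. Members called were 0, and 3 with the block, 3 in numbers 1 and 2 alone and 1 with DESeq2 (Axl). For CIII in F4/80lo 0 genes were called, 2 with DESeq2, 2 with library weights and 12 in numbers 1 and 2 alone. Without a library each, counts for CIII and for the difference of responses stayed at 0. The replicate block changed no other call.

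Sign changes were in values near 0 or of wide spread. Stab1 in level was 0.06, and −0.018 with DESeq2, −0.040 with edgeR, −0.014 on library totals, −0.051 on the deposited scaling and −0.56 in VEH libraries alone, where Elmo1 was −0.27. The response difference was −0.22 (DESeq2) and −0.28 (edgeR) for Axl, −0.026 for Dock1 (edgeR) and −0.060 for Tgm2 (numbers 1 and 2 alone). Pros1 with CIII in F4/80lo was −0.31 in numbers 1 and 2 alone. Leaving out 1 library each, CIII in F4/80lo gave −0.36 to 0.82 for Pros1, −1.64 to 0.72 for Mfge8, −0.31 to 1.63 for Tgm2 and −0.049 to 0.64 for Dock1. In F4/80hi it gave −0.704 to 1.197 for Gas6, −0.32 to 1.36 for Pros1, −0.49 to 1.22 for Mfge8, −0.27 to 0.70 for Elmo1 and −0.11 to 0.34 for Dock1. Stab1 in level ran from −0.17 to 0.35. The response difference ran from −0.23 to 1.22 for Axl, −1.17 to 0.59 for Pros1, −2.20 to 0.18 for Mfge8, −0.84 to 1.12 for Tgm2 and −0.23 to 0.51 for Dock1. A block of treatment and number together, as used for the level but chosen for the response difference after seeing the data, left that difference at 0 genes. Gas6, Mfge8 and Havcr2 had 0 reads in 1, 1 and 3 libraries.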
